A study of Homo sapiens with 6 samples.

Results

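The 10 genes described here encode proteins of the extracellular matrix that are not its main structural fibers. They are the matricellular genes SPP1 (osteopontin), THBS1 and THBS2 (thrombospondins), TNC (tenascin-C) and SPARC (osteonectin), the proteoglycan gene VCAN (versican), the fibulin gene FBLN1, and the FRAS-FREM genes FRAS1, FREM1 and FREM2. They were chosen by name, as the rows whose Ensembl ID maps to these symbols, and all 10 were found among the 40396 genes with a deposited expression value. These genes and the gene lists below were chosen with earlier results of these data known. The libraries came from H1, a human embryonic stem cell line, after 3 days of differentiation to definitive endoderm (DE), the germ layer that gives rise to liver, pancreas and gut. All cells were grown on Matrigel. The medium held activin A at 50 ng/ml throughout and, for the first 24 h, the Wnt activator CHIR99021 at 2.5 µM. The control group received the solvent DMSO, and the SAR group received 0.5 µM saracatinib (SAR) over the whole period. SAR is known as an inhibitor of the Src family of tyrosine kinases. At this low dose, the paper that reported these data found no effective block of Src phosphorylation. It found less phosphorylation of another tyrosine kinase, focal adhesion kinase (FAK). There were 3 libraries of messenger RNA in each group, all from the same cell line, and whether they came from separate cultures is not stated, so p-values measure only the spread between these libraries.

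Matricellular proteins bind collagens, growth factors and cell-surface receptors such as integrins and CD44, and are known for tuning cell adhesion rather than for bearing load. FRAS1, FREM1 and FREM2 form a complex in the basement membrane under epithelia, in which each protein stabilizes the others, and the loss of any of them in development separates epithelium from the tissue below. Versican binds hyaluronan, and fibulin-1 is a ligand of versican and of basement membrane proteins.

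Among the 10 genes, FREM1 changed most with SAR treatment. It was 2.83-fold lower, while its partner FREM2 was 1.61-fold higher and their partner FRAS1 did not pass the test. The rise of FREM2 is less certain, since it passed in only 9 of 15 alternative settings of the test. SPP1 was 2.29-fold lower, with a wide spread in control. SPARC, the most abundant of the 10, was 1.21-fold lower. TNC, FBLN1, VCAN and THBS1 did not pass the test either, and THBS2 was too low to be tested. These folds are ratios of the group means of FPKM, the number of fragments scaled to gene length and to the size of the library.

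The sequences around the start sites of FREM1, FREM2, SPP1, THBS1 and THBS2 are shown because FREM1 and FREM2 moved in opposite directions with SAR, and because SPP1 and both thrombospondins varied alike between the control libraries. Each run covers 250 bases before to 50 bases from the start site, as RefSeq gives it on GRCh38.p14, and is written 5′ to 3′ on the strand of the gene in lower case. Capitals mark matches, on either strand, to GGAATG, bound by the TEAD partners of YAP, or to the TATA box TATAAA. The motifs TGANTCA (AP-1), TGTTTAC (forkhead factors) and AGGTGTGA (T-box factors) were also searched, on both strands.
FREM1, minus strand, chr9:14910946-14911245: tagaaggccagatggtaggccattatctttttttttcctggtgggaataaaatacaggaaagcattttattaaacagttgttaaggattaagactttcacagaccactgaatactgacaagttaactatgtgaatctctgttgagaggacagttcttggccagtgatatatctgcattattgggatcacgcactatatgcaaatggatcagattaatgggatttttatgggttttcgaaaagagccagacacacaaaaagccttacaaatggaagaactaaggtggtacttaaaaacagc
FREM2, plus strand, chr13:38686827-38687126: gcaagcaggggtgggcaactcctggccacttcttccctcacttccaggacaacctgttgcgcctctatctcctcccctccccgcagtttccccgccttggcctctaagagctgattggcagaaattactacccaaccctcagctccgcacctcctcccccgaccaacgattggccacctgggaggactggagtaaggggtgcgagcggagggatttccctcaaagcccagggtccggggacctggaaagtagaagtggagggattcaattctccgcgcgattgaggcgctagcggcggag
SPP1, plus strand, chr4:87975464-87975763: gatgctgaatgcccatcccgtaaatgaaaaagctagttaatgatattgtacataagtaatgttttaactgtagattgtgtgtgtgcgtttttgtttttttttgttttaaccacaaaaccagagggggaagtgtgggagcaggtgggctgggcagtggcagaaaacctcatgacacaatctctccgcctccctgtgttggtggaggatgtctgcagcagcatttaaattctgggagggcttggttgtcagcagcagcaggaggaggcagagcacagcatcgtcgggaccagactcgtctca
THBS1, plus strand, chr15:39580829-39581128: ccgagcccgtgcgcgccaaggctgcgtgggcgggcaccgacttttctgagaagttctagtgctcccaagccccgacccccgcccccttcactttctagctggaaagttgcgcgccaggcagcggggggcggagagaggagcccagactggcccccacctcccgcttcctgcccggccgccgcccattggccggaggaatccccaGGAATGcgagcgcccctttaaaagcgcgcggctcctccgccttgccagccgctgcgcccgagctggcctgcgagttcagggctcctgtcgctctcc
THBS2, minus strand, chr6:169253797-169254096: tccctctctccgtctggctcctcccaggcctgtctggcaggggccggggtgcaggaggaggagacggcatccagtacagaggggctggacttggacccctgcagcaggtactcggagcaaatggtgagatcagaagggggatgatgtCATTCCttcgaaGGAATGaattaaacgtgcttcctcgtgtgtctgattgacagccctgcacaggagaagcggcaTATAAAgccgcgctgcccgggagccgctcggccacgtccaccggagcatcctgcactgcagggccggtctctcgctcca
The THBS1 run held GGAATG at bases -46 to -41, counted from the start site. The THBS2 run held it in both orientations, at -103 to -98 and -91 to -86, and also held TATAAA at -29 to -24. In the SPARC run GGAATG lay at -17 to -12, in the reverse orientation. No match to any of the 5 motifs was found in the runs of SPP1, FREM2, TNC, VCAN, FBLN1 and FRAS1 or in the FREM1 run shown. RefSeq gives 2 further start sites of FREM1, and TGANTCA was found in 1 of these, which lies inside the gene. Of all 35116 RefSeq promoters of this length, 14.0% held GGAATG, 7.7% TGANTCA, 3.4% TGTTTAC, 1.0% AGGTGTGA and 11.5% TATAAA. The FREM1 run was 37.0% G and C, which is higher than 6.5% of promoters, and the runs at its 2 further start sites were 52.3% and 40.0%. The FREM2 run was 61.0% G and C, and the median of all promoters was 58.7%. A match is a string of letters in this window, and binding was not measured in these samples.

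The depth recovered from the FPKM was 18877964 to 24419937 reads for control and 16681280 to 18389543 reads for SAR. In control replicate 1, 33169 genes had a value above 0 FPKM, more than the 29506 to 30109 of the remaining 5 libraries, and several low genes of the lists below, such as COMP and STAB1, were highest in it. The differentiation markers SOX17 and FOXA2 were present in every library, SOX17 at 29.6 to 33.1 FPKM in control and 48.8 to 85.3 FPKM with SAR. All 10 DE markers of a fixed list passed the test at an adjusted p under 0.05, 4 higher and 6 lower with SAR. Of all tested genes, 23.7% were higher and 9.55% lower at that threshold. Higher were SOX17, FOXA2, HHEX and KIT, and lower were CXCR4, GATA6, GATA4, EOMES, CER1 and GSC. The summed level of the 10 DE markers, most of it the secreted antagonist CER1, fell from between 3958 and 5060 FPKM in control to between 2074 and 2128 FPKM with SAR. The pluripotent markers summed to between 644.9 and 751.2 FPKM in control and to between 808.3 and 830.5 FPKM with SAR. Of these 7, 2 were higher, SOX2 and LIN28A, and 1 was lower, NANOG, which is to be read beside the same shares of all tested genes. The part of such marker changes in the results for the matrix genes was not tested, and fewer cells of a type and less RNA per cell cannot be told apart in bulk samples.

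In control, the members spanned a wide range of levels per length. SPARC was highest at 167.1 ± 5.67 FPKM (SD, n = 3), higher than 98.6% of the tested genes on the mean over all libraries. FBLN1 followed at 48.0 ± 4.78 FPKM, TNC at 29.4 ± 1.13 FPKM, THBS1 at 23.9 ± 9.91 FPKM, SPP1 at 19.8 ± 8.44 FPKM and VCAN at 16.8 ± 0.356 FPKM. The control ranges of TNC and THBS1, of THBS1 and SPP1, and of SPP1 and VCAN overlapped, so these neighbors did not differ beyond their spread. The FRAS-FREM genes stood lower, FRAS1 at 9.44 ± 1.36 FPKM, FREM1 at 5.81 ± 0.488 FPKM and FREM2 at 2.84 ± 0.179 FPKM. THBS2 was lowest at 0.567 ± 0.226 FPKM. With SAR the order was the same except for SPP1 and FREM1. SPP1, at 8.62 ± 1.12 FPKM, stood below VCAN at 15.2 ± 2.08 FPKM and beside FRAS1 at 10.3 ± 1.88 FPKM, whose range it overlapped. FREM1, at 2.05 ± 0.218 FPKM, stood below FREM2 at 4.58 ± 1.22 FPKM. The SPP1 level depends on the gene length used, since the length behind its FPKM was 7250 bases and its exons in GENCODE 29 cover 2321 bases. The lengths behind FREM1 (8274 bases), FRAS1 (20323) and THBS2 (7197) also differ from their exons in GENCODE 29 (10762, 18960 and 6412). Fold changes between libraries do not depend on these lengths.

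**Figure D1:**
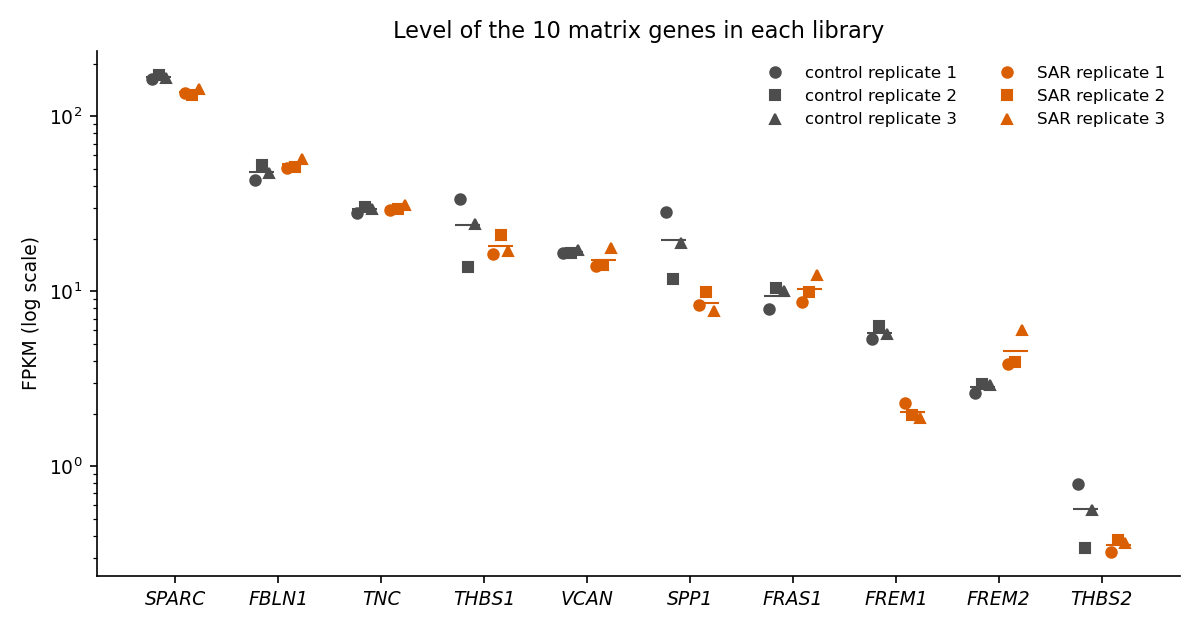
FPKM of the 10 matrix genes in each of the 6 libraries, on a log axis, with control in grey and SAR in orange, 1 point per library and a line at each group mean. FREM1 and SPP1 lie lower with SAR with no overlap, FREM2 lies higher with no overlap, and SPP1, THBS1 and THBS2 have the widest spread in control.

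The test was limma on log2(FPKM + 0.1), and it covered the 16371 genes whose mean over the libraries reached 0.5 FPKM. Fold changes below are on that scale, SAR minus control. Upregulated and downregulated genes had to pass an adjusted p of 0.05 and to change by more than 1 on the log2 scale. Of the 10 members, 9 passed the filter on low values. Of these, 2 were called downregulated, FREM1 and SPP1, where 1.58% of all tested genes were. The number called upregulated was 0, where 3.41% of all tested genes were called, and 1 member, FREM2, was higher at an unadjusted p under 0.05. The voom test on recovered reads also called 0 members upregulated. With no minimum fold change, 3 members were lower, FREM1, SPP1 and SPARC, and 1 was higher, FREM2, at an adjusted p under 0.05, where 9.55% of all tested genes were lower and 23.7% were higher. The groups did not overlap for the same 3 members below control and for FREM2 above it, where 15.2% of the tested genes lay below without overlap and 35.5% above. The median log2 fold change of the 9 members was -0.15, beside 0.12 for all tested genes. After median-ratio rescaling the members' median was -0.27 and that of all genes -0.0001, and the counts of upregulated and downregulated genes over the whole table went from 559 and 259 to 397 and 363.

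**Figure D2:**
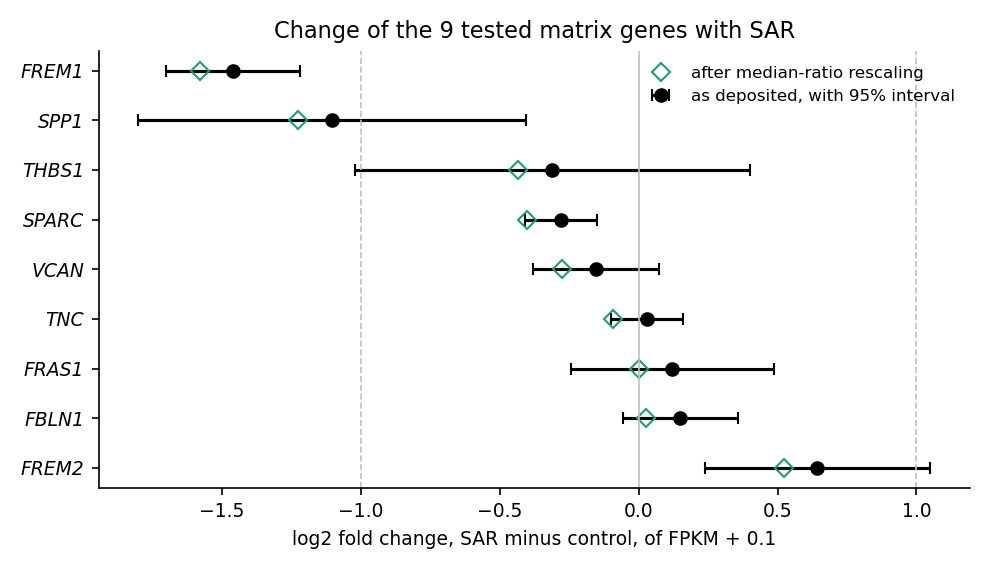
Log2 fold change of the 9 tested matrix genes, SAR minus control, on the log2(FPKM + 0.1) scale. Black points and bars are the limma estimates with 95% intervals from the FPKM as deposited, open diamonds the estimates after median-ratio rescaling, and dashed lines mark -1 and 1. FREM1 at -1.46 is the only gene whose whole interval lies under -1, and the sign of TNC and FRAS1 changes with the rescaling.

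FREM1, on chromosome 9 at 14734666 to 14910995 (minus strand, GENCODE 29), encodes the smallest of the 3 complex proteins. It was measured at 5.38, 6.34 and 5.71 FPKM in control replicates 1, 2 and 3 and at 2.30, 1.98 and 1.88 FPKM in the SAR replicates. Behind these levels stood 892 to 1281 reads per control library and 277 to 317 per SAR library. Every SAR library lay below every control library, and both groups were narrow, with coefficients of variation of 8.4% and 10.7%. The log2 fold change was -1.46 (SE 0.102, 95% interval -1.70 to -1.22) with an adjusted p of 0.000407 (limma). It was called downregulated in all 15 alternatives that were run, with log2 fold changes between -1.59 and -1.16. No other gene of GENCODE 29 shares its exons on either strand.

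FREM2, on chromosome 13, encodes a membrane-anchored partner of FREM1. Its levels were 2.63, 2.96 and 2.92 FPKM in control and 3.83, 3.93 and 5.98 FPKM with SAR, from between 898 and 1790 reads. The SAR libraries lay above the control libraries, and SAR replicate 3 stood above the other two. FREM2 rose by a log2 fold change of 0.64 (SE 0.171, 95% interval 0.24 to 1.05) with an adjusted p of 0.0283 (limma), and was not called because this is under 1. After rescaling it was 0.52 with an adjusted p of 0.0585. Without SAR replicate 3 it was 0.44 with an adjusted p of 0.0135. Without control replicate 1, 2 or 3 the adjusted p was 0.0744, 0.0648 or 0.0722.

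FRAS1, on chromosome 4, encodes the other membrane-anchored protein of the complex. Its levels were 7.88, 10.4 and 10.0 FPKM in control and 8.68, 9.89 and 12.4 FPKM with SAR, and the groups overlapped. Its log2 fold change was 0.12 (95% interval -0.24 to 0.49) with an adjusted p of 0.569, and after rescaling it was -0.0001. An increase of up to 0.49 or a decrease of up to 0.24 on the log2 scale therefore remains within its interval.

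Set against each other within each library, the FRAS-FREM genes changed their proportions. The level of FREM1 was 2.05, 2.14 and 1.95 times that of FREM2 in the control libraries, and 0.600, 0.503 and 0.314 times it in the SAR libraries. The ratio was thus above 1 in every control library and below 1 in every SAR library, a log2 difference of -2.17. An exact permutation test of the ratio gave p = 0.1, which is the smallest that 3 libraries against 3 allow. Such a ratio does not depend on how libraries are scaled to each other. Its size depends on the gene lengths behind the FPKM, but its change between the groups does not. The ratio of FREM2 to FRAS1 was 0.284 to 0.334 in control and 0.397 to 0.483 with SAR (log2 difference 0.54, exact permutation p = 0.1). Of the summed FPKM of the 3 genes, FREM1 made up 30.6% to 33.8% in control and 9.3% to 15.5% with SAR. The share of FREM2 went from between 15.0% and 16.6% to between 24.9% and 29.6%, and that of FRAS1 from between 49.6% and 53.8% to between 58.6% and 62.6%. The sum itself overlapped between the groups, at between 15.9 and 19.7 FPKM in control and between 14.8 and 20.2 FPKM with SAR. By FPKM at the gene lengths used, FRAS1 was the main transcript of the complex in every library, and the second place passed from FREM1 to FREM2. Of the partners of the complex in the fixed list, only GRIP1, a scaffold protein needed for placing FRAS1 and FREM2 at the cell surface, passed the filter. Its log2 fold change was 0.23 (95% interval -0.03 to 0.49) with an adjusted p of 0.148. FREM3, GRIP2, NPNT (nephronectin, a basement membrane ligand of integrin α8β1) and VWA2 had means under 0.5 FPKM and were not tested.

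**Figure D3:**
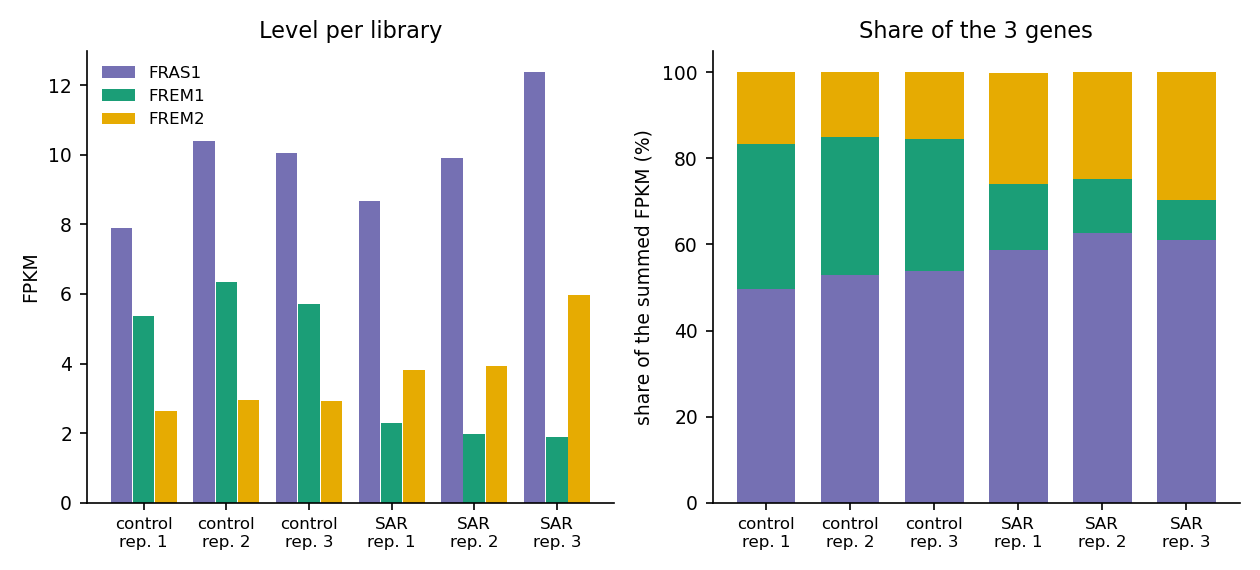
Left, FPKM of FRAS1, FREM1 and FREM2 in each library; right, their shares of the summed FPKM of the 3 genes in percent. FREM1 stands above FREM2 in the 3 control libraries and below it in the 3 SAR libraries.

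SPP1, on chromosome 4 at 87975650 to 87983426 (plus strand), encodes osteopontin, a phosphoprotein that binds integrins and CD44. Its levels were 28.6, 11.7 and 19.0 FPKM in control and 8.33, 9.87 and 7.68 FPKM with SAR, from between 1007 and 4536 reads. The SAR libraries lay close together and below all control libraries, and control replicate 2 was nearer to them than to control replicate 1. The log2 fold change was -1.10 (SE 0.295, 95% interval -1.80 to -0.40) with an adjusted p of 0.0289 (limma), which made it downregulated. The size of the change depends on which control libraries are kept. Without control replicate 1 the log2 fold change was -0.79, under the minimum of the call, with an adjusted p of 0.0417, and without control replicate 2 it was -1.43 with an adjusted p of 0.00816. The call was also lost without control replicate 3 (adjusted p = 0.0808) and without SAR replicate 1, 2 or 3 (adjusted p = 0.0768, 0.0565 and 0.0703). It was lost with no filter on low values (adjusted p = 0.0724) and with no intensity trend (adjusted p = 0.0507). Across the 15 alternatives the log2 fold change lay between -1.43 and -0.79.

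THBS1 and THBS2 encode thrombospondin-1 and thrombospondin-2, trimeric glycoproteins that bind CD36, CD47 and heparan sulfate. THBS1 was measured at 33.6, 13.8 and 24.2 FPKM in control and at 16.3, 21.1 and 17.0 FPKM with SAR. All SAR libraries lay inside the range of the control libraries, and the log2 fold change of -0.31 had an interval from -1.02 to 0.40 (adjusted p = 0.449, limma). A decrease of the size estimated for SPP1 lies just outside that interval, as does an increase above 0.40. Without control replicate 2, the lowest control library, the log2 fold change was -0.66 with an adjusted p of 0.0433, and without control replicate 1 it was -0.02. Of its exons in GENCODE 29, 7.6% overlap genes on the opposite strand, of which FSIP1 stood at 0.27 FPKM or less in all libraries.

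THBS2 had a mean of 0.461 FPKM, below the filter at the gene length behind its FPKM. Its levels were 0.793, 0.341 and 0.567 FPKM in control and 0.325, 0.377 and 0.363 FPKM with SAR, from between 39 and 125 reads. As for THBS1, control replicate 1 was highest and control replicate 2 lowest in control, and the SAR libraries lay close together. The ratio of THBS1 to THBS2 was 42.3, 40.3 and 42.7 in the control libraries and 50.3, 55.9 and 46.8 in the SAR libraries. In control the ratio was nearly constant, although the level of each gene differed between these libraries by 2.44-fold for THBS1 and 2.32-fold for THBS2. With SAR the ratio was higher in every library (exact permutation p = 0.1, the smallest possible). THBS2 had only 39 to 48 reads in each SAR library. Counting error alone would give it a coefficient of variation of 10.7% in control and more at these reads. The gap between the ratios of 42.7 in control and 46.8 with SAR is therefore not beyond counting error. When all genes were tested with no filter, the log2 fold change of THBS2 was -0.50 with an adjusted p of 0.428.

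SPP1, THBS1 and THBS2 had the widest spread of the members in control. The coefficients of variation of SPP1 and THBS1 in control were 42.8% and 41.6%, higher than in 97.7% and 97.5% of the tested genes that averaged 1 FPKM or more, whose median was 6.6%. For THBS2, with a mean under 1 FPKM, the coefficient was 39.8%. Counting error alone would give SPP1 a coefficient of 1.8%, THBS1 one of 1.5% and THBS2 one of 10.7%. With SAR the coefficients were 13.0%, 14.2% and 7.6%. SPP1, THBS1 and THBS2 were all highest in control replicate 1 and lowest in control replicate 2. Of the 1334 genes averaging 1 FPKM or more with a control spread above 1.5-fold, 33.6% shared that order, and of all tested genes 26.2% did. CCN1 and CCN2, matricellular genes known as targets of YAP, and the receptor gene CD44 had the same order, and were chosen for this comparison after their values were seen. CCN1 was 1.85-fold, CCN2 1.84-fold and CD44 1.78-fold higher in control replicate 1 than in control replicate 2. The order is not particular to matrix genes or YAP targets. Among the cell type markers, SOX2 (1.79-fold), POU5F1 (1.59-fold) and TWIST1 (2.43-fold) also had it, and were likewise picked after their values were seen.

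**Figure D4:**
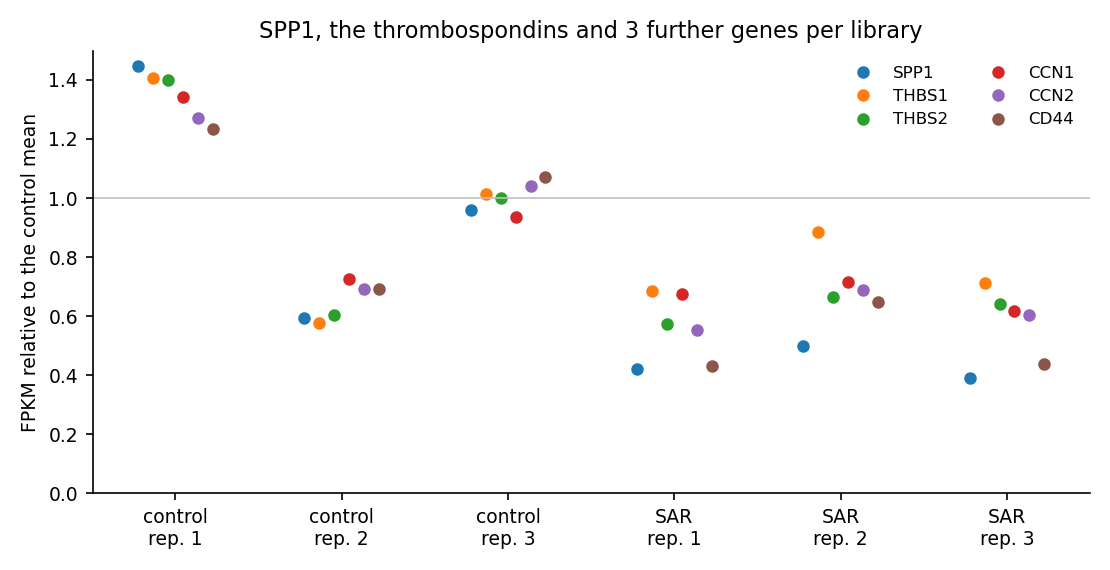
FPKM of SPP1, THBS1, THBS2, CCN1, CCN2 and CD44 in each library, divided by the mean of the control libraries, 1 point per gene and library, with a line at the control mean. All 6 genes are highest in control replicate 1 and lowest in control replicate 2 among the control libraries, and the SAR libraries spread less.

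SPARC, on chromosome 5, encodes a collagen-binding glycoprotein of newly made matrix. Its levels were 162.7, 173.5 and 165.2 FPKM in control and 136.9, 132.7 and 143.5 FPKM with SAR, each from 10439 reads or more. The groups were narrow and did not overlap. The log2 fold change was -0.28 (SE 0.0549, 95% interval -0.41 to -0.15) with an adjusted p of 0.0104 (limma), a small change that passed an adjusted p of 0.05 in all 15 alternatives. Of its exons, 7.9% overlap CLMAT3 on the opposite strand, which stood at 0.11 FPKM or less.

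TNC, on chromosome 9, encodes tenascin-C, a hexameric protein of embryonic and wound matrix. Its levels were 28.2, 30.4 and 29.6 FPKM in control and 29.3, 29.5 and 31.3 FPKM with SAR, and the groups overlapped. With SAR its log2 fold change was 0.03 (95% interval -0.10 to 0.16) with an adjusted p of 0.698, and after rescaling it was -0.09, so no direction can be given. TNC had the narrowest interval of the members that did not pass the test.

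FBLN1, on chromosome 22, was measured at 43.4, 52.9 and 47.6 FPKM in control and at 50.9, 51.2 and 57.4 FPKM with SAR. FBLN1 had a log2 fold change of 0.15 (95% interval -0.06 to 0.36) with an adjusted p of 0.218, and after rescaling it was 0.03. VCAN, on chromosome 5, was measured at 16.6, 16.7 and 17.2 FPKM in control and at 14.0, 14.1 and 17.6 FPKM with SAR. SAR replicate 3 was above all control libraries and the other two below them. The log2 fold change of VCAN was -0.15 (95% interval -0.38 to 0.07) with an adjusted p of 0.250, and without SAR replicate 3 it was -0.26 with an adjusted p of 0.0144. SAR replicate 3 was also the highest SAR library for SPARC, FBLN1, TNC, FRAS1 and FREM2, and the lowest for SPP1 and FREM1.

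Genes of the same families and partners of the members were given by a fixed list of 47, of which 20 passed the filter. Of these, 4 were called upregulated, SMOC2, EFEMP1, SPOCK3 and SPOCK2, and 0 downregulated by limma or by voom, with 3 lower at an unadjusted p under 0.05, where 3.41% and 1.58% of all tested genes were called. At an adjusted p under 0.05, 10 were higher and 1 was lower, where 23.7% and 9.55% of all tested genes were. The median log2 fold change of the 20 was 0.36, beside 0.12 for all tested genes, and 0.24 after rescaling. The SPARC family held 3 of the 4 called genes. SMOC2, a secreted calcium-binding protein, was measured at between 0.254 and 0.355 FPKM in control and between 1.13 and 1.52 FPKM with SAR (log2 fold change 1.82, SE 0.212, adjusted p = 0.00187). The testican genes SPOCK3 and SPOCK2, which encode proteoglycans, had log2 fold changes of 1.21 and 1.17 (adjusted p = 0.00597 and 0.0108). SPOCK1, the third testican gene, went the other way, from between 3.19 and 3.69 FPKM to between 2.41 and 2.78 FPKM (log2 fold change -0.36, adjusted p = 0.0257). EFEMP1 (fibulin-3), a relative of FBLN1, was measured at 1.74, 1.08 and 1.40 FPKM in control and at 3.78, 3.99 and 4.75 FPKM with SAR (log2 fold change 1.52, SE 0.172, adjusted p = 0.00174), and was called in all 15 alternatives. SMOC2, SPOCK2 and SPOCK3 have means under 1 FPKM, so that with a pseudocount of 1 or a minimum mean of 1 FPKM the count of upregulated genes was 1. Without control replicate 1 it was 7.

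Within the subfamilies, both tested thrombospondins, THBS3 and THBS4, were higher with SAR at an adjusted p under 0.05, with log2 fold changes of 0.50 and 0.62, while THBS1 did not pass the test. Of the 5 tested fibulins and hemicentins, 3 were higher, EFEMP1, FBLN5 and EFEMP2. Among the link proteins and the synthases of hyaluronan, the ligand of versican, the synthase HAS3 (log2 fold change 0.94) and the link protein HAPLN3 (0.88) were higher. HAS2, by far the most abundant synthase at between 30.3 and 46.7 FPKM over all libraries, had a log2 fold change of -0.05 (adjusted p = 0.833). CCN2 and CCN1 had log2 fold changes of -0.67 and -0.53 with adjusted p-values of 0.0509 and 0.0860, and after rescaling of -0.79 and -0.66 with adjusted p-values of 0.0277 and 0.0442. None of the 3 other tenascins, the 4 other phosphoproteins of the SPP1 family or the 3 other versican-type proteoglycans had a mean of 0.5 FPKM. These subfamily genes were named after their values were seen.

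Receptors known to bind the members were given by a fixed list, which like the others was chosen with earlier results of these data known. It held 19 genes, of which 14 passed the filter. Of these, 1 was called upregulated, ITGB8, and 1 downregulated, ITGA4, where 3.41% and 1.58% of all tested genes were. At an adjusted p under 0.05, 3 were higher, ITGB8, CD47 and SDC1, and 6 were lower, ITGA4, CD44, ITGAV, ITGA9, ITGB1 and ITGB5, where 23.7% and 9.55% of all tested genes were. The 6 lower receptors are 5 integrin chains and CD44. ITGAV, the αv chain that pairs with several β chains to bind osteopontin and tenascin-C, fell from 23.0, 24.7 and 23.9 FPKM to 13.4, 13.0 and 14.5 FPKM (log2 fold change -0.80, SE 0.0617, adjusted p = 0.000522). ITGB1 fell by 0.54 and ITGB5 by 0.34 on the log2 scale (adjusted p = 0.00263 and 0.00669). ITGA9, whose integrin binds osteopontin and tenascin-C, fell by 0.55 (adjusted p = 0.0161). ITGB8, which pairs with αv, was measured at 0.759, 0.711 and 0.730 FPKM in control and at 1.80, 1.69 and 2.01 FPKM with SAR (log2 fold change 1.21, SE 0.123, adjusted p = 0.00124).

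ITGA4, whose mean is under 1 FPKM and which was named because it was called, was measured at 1.10, 2.31 and 1.69 FPKM in control and at 0.191, 0.255 and 0.271 FPKM with SAR (log2 fold change -2.36, SE 0.293, adjusted p = 0.00229). CD47, a receptor of thrombospondin-1, was higher by a log2 fold change of 0.71 (adjusted p = 0.00231), and SDC1, a heparan sulfate proteoglycan of the cell surface, by 0.46 (adjusted p = 0.00377). CD44, which binds osteopontin and hyaluronan, stood at 2.08, 1.17 and 1.81 FPKM in control and at 0.726, 1.09 and 0.740 FPKM with SAR (log2 fold change -0.89, adjusted p = 0.0323), and after rescaling it was called downregulated. It did not pass an adjusted p of 0.05 without control replicate 1 or 3 (adjusted p = 0.0863 and 0.103) or without SAR replicate 1 or 3 (0.0898 and 0.0733), and ITGA9 did not without control replicate 3 or SAR replicate 2 (0.0532 and 0.0527). The median log2 fold change of the 14 receptors was -0.09, and -0.21 after rescaling.

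**Figure D5:**
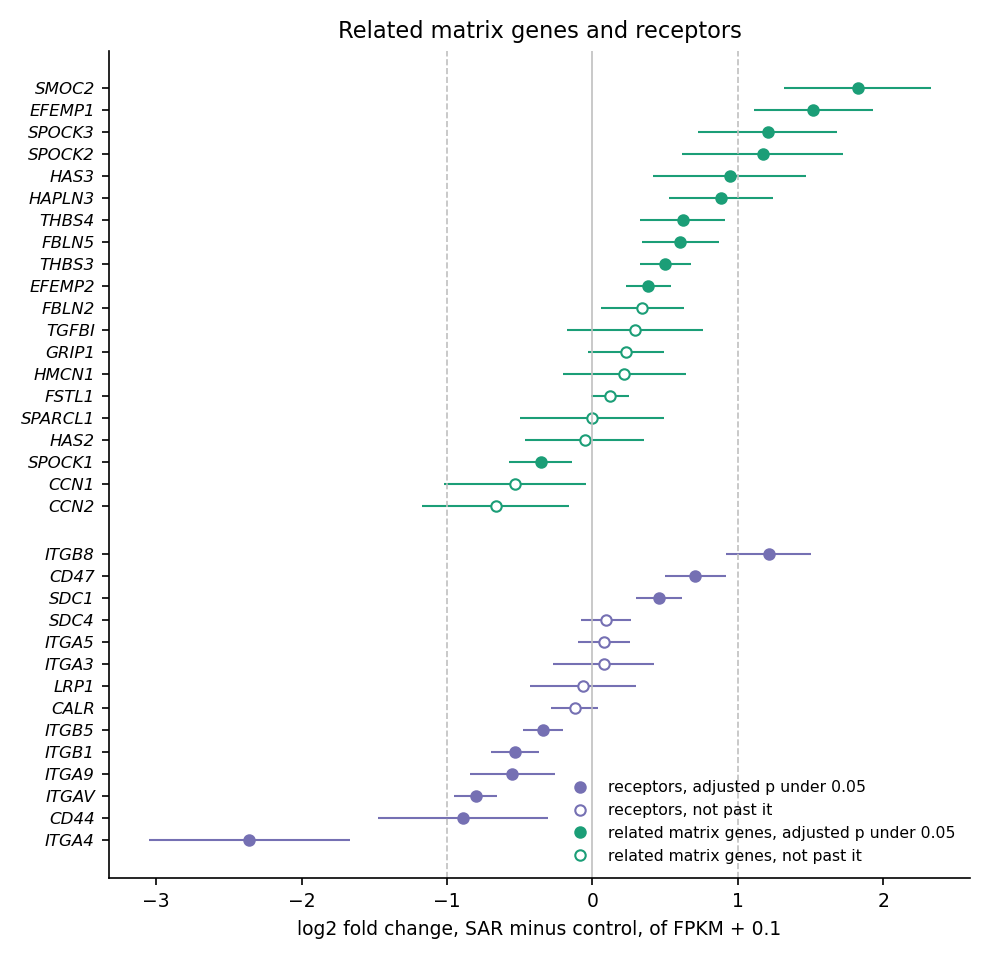
Log2 fold change, SAR minus control, of the 20 tested related matrix genes (green) and the 14 tested receptors (purple) with 95% intervals, on the log2(FPKM + 0.1) scale. Filled points passed an adjusted p of 0.05 in limma and open points did not, and dashed lines mark -1 and 1. SMOC2 lies highest and ITGA4 lowest.

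Because several members are made at high level by fibroblasts, markers of other cell types were read beside them. Of 8 fibroblast or mesenchyme markers, 4 passed the filter and none of these passed an adjusted p of 0.05 (limma), with 0 at an unadjusted p under 0.05. Their summed level was between 46.4 and 50.3 FPKM in control and between 44.9 and 55.1 FPKM with SAR, most of it COL1A1 and COL1A2. Some markers of the list were present and others were near 0. Besides these collagen genes, THY1 stood at between 4.94 and 6.00 FPKM and TWIST1 at between 1.35 and 3.49 FPKM over all libraries. COL3A1, LUM, DCN and PRRX1 stood at 0.209 FPKM or less in every library, and each was listed at 0 in at least 1 library. The 4 endothelial markers summed to between 1.56 and 3.52 FPKM in control and between 1.68 and 1.87 FPKM with SAR. Most of this was TEK, at between 1.41 and 2.73 FPKM in control and between 1.22 and 1.39 FPKM with SAR (limma adjusted p = 0.0900). PECAM1, under the filter, went the other way, from between 0.0411 and 0.118 FPKM to between 0.240 and 0.274 FPKM. CDH5 and ESAM, also under the filter, overlapped between the groups. Of the mesoderm markers, 5 of 10 passed the filter, with 2 higher and 1 lower at an adjusted p under 0.05, where 23.7% and 9.55% of all tested genes were. The mesoderm list summed to between 21.4 and 22.9 FPKM in control and between 27.3 and 31.9 FPKM with SAR. TBXT, a gene of the primitive streak, was called upregulated (log2 fold change 1.69, limma adjusted p = 0.000574). TBX6 was higher by 0.82 on the log2 scale and KDR lower by 0.22 (limma adjusted p = 0.00207 and 0.0177). In the DE list, 3 of 10 genes were called upregulated and 4 downregulated, where 3.41% and 1.58% of all tested genes were. Upregulated were SOX17, FOXA2 and HHEX, with log2 fold changes of 1.06, 1.44 and 1.03. Downregulated were GATA4 (-1.05), CER1 (-1.28), EOMES (-1.36, limma adjusted p = 0.000674) and GSC (-1.48, limma adjusted p = 0.000382). The summed level of the neural and extraembryonic endoderm lists overlapped between the groups.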

How the data were processed

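Messenger RNA of H1 cells on day 3 of DE differentiation was measured in 3 control and 3 SAR libraries, grouped by their labels. The authors deposited FPKM for 40396 Ensembl genes, 1 column per library. HISAT2, featureCounts of Subread, DESeq2 and the build GRCh38.p13 are named in the submitters' processing notes, without versions or settings. The strand setting is not given in the sources used here, so overlap with antisense genes is stated as a limit.

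FPKM call for a test on the log scale, and limma 3.58.1 (R 4.3.3; lmFit; eBayes, trend in intensity) was applied to log2(FPKM + 0.1). It had no replicate block and covered the 16371 genes averaging 0.5 FPKM or more, with two-sided p-values adjusted by Benjamini-Hochberg over all tested genes. The added 0.1 understates the change of low genes. FPKM are scaled by the total of each library only.

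Read counts were recovered from the FPKM with ratios of library totals from low genes and GENCODE 29 exon lengths, and 40394 of the 40396 genes came out whole in all 6 libraries (tolerance 0.003 reads). Of the 39023 genes in GENCODE 29, 58.4% had its exon length. The recovered reads gave the depth and a voom test, an alternative chosen after seeing the data, which called 691 genes upregulated and 296 downregulated. They cover counting error only.

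Positions are those of GENCODE 29, and promoters those of RefSeq on GRCh38.p14, in which all 10 members were matched by symbol. The members and lists were chosen with earlier results of these data known. Named were all members, every called related gene, and up to 8 receptors averaging 1 FPKM or more and past an adjusted p of 0.05. Where other genes are named, the choice came after seeing values. As alternatives, the pseudocount was set to 1 or 0.01, the filter was dropped or raised to 1 FPKM, libraries were rescaled by median ratios or quantile normalized, the intensity trend was dropped, the replicate number was added as a block, and each library was left out in turn. Scripts were tested on simulated data. Python 3.11.15 was used for the summaries, with scipy 1.17.1, numpy 2.4.6 and pandas 2.3.3, and matplotlib 3.10.9 for plots.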

Additional observations from a re-analysis of the deposited data

How the results depend on the processing

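Of the 2 members called downregulated, 1 (FREM1) was called when low genes were not filtered out and when the intensity trend was dropped, and between 1 and 2 when a library was left out. The member higher at an adjusted p under 0.05, FREM2, passed in 9 of 15 alternatives. That count was 0 with no filter, with median-ratio rescaling and with quantile normalization, and between 0 and 1 without a library. Related genes called upregulated were 1 with a pseudocount of 1, 1 with a minimum mean of 1 FPKM, 2 with quantile normalization, and between 4 and 7 without a library. Receptors called upregulated were 0 with a pseudocount of 1. Receptors called downregulated were 0 with a minimum mean of 1 FPKM, 2 with rescaling, 2 with quantile normalization, and between 1 and 2 without a library. The sign of TNC turned with rescaling (-0.0924), quantile normalization (-0.0056), without control replicate 1 (-0.0001) and without SAR replicate 3 (-0.0009), and that of FRAS1 with rescaling (-0.0001), without control replicate 1 (-0.0018) and without SAR replicate 3 (-0.0161). Over the fits without a library, TNC lay between -0.0009 and 0.0544 and FRAS1 between -0.0161 and 0.2369. The cause of these shifts was not tested. Some of the alternatives also hold fewer libraries or genes, and the part of this in the shifts was not tested either.

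With the replicate number as a block, 0 members were called upregulated and 2 downregulated, FREM1 with an adjusted p of 0.00291 and SPP1 with 0.0374, while CD44 no longer passed an adjusted p of 0.05 (0.0653). The deviations of same-numbered libraries correlated by 0.073, 0.003 and 0.025, so the numbers are not shown to pair the libraries. With 3 libraries a group, the intervals of THBS1 and SPP1 span more than 1 on the log2 scale, and THBS2, with 39 to 125 reads, could not be tested at the filter used.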

Other observations

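Of the related matrix genes 27, and of the receptors 5, lay under the filter and were not tested. The 9 of them whose groups did not overlap, 5 higher and 4 lower with SAR, are given here as values, chosen after they were seen. Of the tested genes, 35.5% lay above control without overlap and 15.2% below, and the share among genes under the filter was not counted. Several of the 9 rest on few reads, so their lack of overlap is not read as a result. SMOC1, the closest relative of SMOC2, was measured at 0.209, 0.0656 and 0.0364 FPKM in control and at 0.604, 0.851 and 1.17 FPKM with SAR, from 3 to 20 reads in control and 44 to 94 reads with SAR. CCN3 was measured at 0.314, 0.0940 and 0.162 FPKM in control and at 0.734, 0.745 and 0.479 FPKM with SAR. NCAN (neurocan), a brain relative of versican, was measured at 0.343, 0.231 and 0.230 FPKM in control and at 0.477, 0.648 and 0.715 FPKM with SAR. MEPE, a phosphoprotein gene of the SPP1 family, stood at between 0.150 and 0.198 FPKM in control and between 0.238 and 0.290 FPKM with SAR. The integrin chain ITGB3 stood at between 0.194 and 0.234 FPKM in control and between 0.303 and 0.515 FPKM with SAR. FREM3, the fourth gene of the FRAS-FREM family, stood at 0.266, 0.0537 and 0.0386 FPKM in control and at 0.0174, 0.0258 and 0.00792 FPKM with SAR, from 1 to 3 reads in each SAR library, and its level in control replicate 1 was far above that in the other control libraries. NPNT stood at between 0.199 and 0.299 FPKM in control and between 0.0979 and 0.177 FPKM with SAR. The thrombospondin receptor CD36 stood at between 0.0633 and 0.109 FPKM in control and between 0.0441 and 0.050 FPKM with SAR. The integrin chain ITGB6 stood at 0.103, 0.0142 and 0.0183 FPKM in control and at 0.0104, 0 and 0.00940 FPKM with SAR, from 2 reads or fewer in every library but control replicate 1.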
